A study of Mus musculus with 2 samples.

Results

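Genes of antioxidant defence, glutathione metabolism and metal binding were examined in mouse hematopoietic stem cells (HSC), a scarce marrow population from which every blood lineage descends. The members were 36 genes chosen by name, with earlier results of these data known. Probe sets were assigned to them through the platform annotation only where it named a single gene. By this rule 33 of the 36 genes had a probe set, 73 probe sets in all, out of 18161 named genes on the array. Prdx1 was not analysed here because its 5 probe sets also name another gene, and Prdx5 and Prdx6 were not analysed here. Labelled RNA was hybridised to 1 Affymetrix 3' expression array for each of these groups: HSC labelled Sirt6 knockout, aged 3 months, and HSC labelled wild type, aged 3 months. Sirt6 encodes a nuclear NAD-dependent deacylase of histones. The sources used here do not say how or in which cells the allele was disrupted, how HSC were sorted or whether animals were pooled.

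Cells remove reactive oxygen in steps. Superoxide dismutases convert superoxide to hydrogen peroxide, which catalase, glutathione peroxidases and peroxiredoxins then reduce. Glutathione and thioredoxin supply the electrons and are recharged from NADPH by their reductases, while metallothioneins bind zinc and copper through clustered cysteines and also quench oxidants. Nfe2l2 (NRF2) drives many of these genes through antioxidant response elements and is held low by Keap1, and Mtf1 drives metallothioneins through metal response elements. In HSC, low levels of reactive oxygen are tied to quiescence.

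The values are MAS5 signals, linear intensities that summarise each probe set on each array. The position of a probe set in its transcript is not part of the annotation used. A gene was represented by whichever of its probe sets had the highest log2 signal averaged over the arrays. It counted as measured when above a floor of 60.5 signal units, the median over all probe sets, on at least 1 array. Ratios are Sirt6 knockout over wild type on the log2 scale. With 1 array per genotype there is no replicate, so no test, SD or p-value was computed, and each difference compares these RNA samples only. The log2 ratios of probe sets of the same gene had an SD of 0.22 over 4635 genes. That SD describes the spread between probe sets on these arrays only. It leaves out error shared by a whole RNA sample or array, and differences between animals. In bulk samples like these, a change in the share of cells of a type and a change in RNA per cell cannot be told apart.

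The array labelled knockout did not have a low signal for the targeted gene: the single Sirt6 probe set read 174 (labelled knockout) and 124 (wild type). The sources used here do not say which part of the transcript that probe set covers, so it checks nothing about the allele, and all directions rest on the label. Values marked "labelled knockout" are from that array. The median signals of the arrays were 60.7 (knockout) and 60.8 (wild type). HSC markers were present, with all 14 that had a probe set measured, but past 1.5-fold 6 were lower and 0 higher with the knockout label. Their summed signals were 13378 (knockout) and 15433 (wild type), with Ndn (-1.58), Fgd5 (-1.38) and Mllt3 (-1.17) furthest apart.

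Of the 36 genes, 29 were measured, and Gpx3, Slc7a11, Sod3 and Hmox1 lay under the floor on both arrays. At a size of 1.5-fold, 3 measured genes were higher on the array labelled knockout (Mt1, Gsr and Srxn1), 1 was lower (Nqo1) and 25 lay between. Of the 29, 10.3% were therefore counted as higher and 3.45% as lower, against 1.72% higher and 2.63% lower (4.35% in either direction) of the 11540 genes measured on the array. Because the members were chosen with earlier results of these data known, these shares are a description only. Of the 3 higher genes, only Gsr was past 1.5-fold on more than 1 probe set above the floor. The median log2 ratio of the members was 0.05, and that of all measured genes was 0.0022. Positive ratios were seen in 19 of the 29, or 65.5%, against 50.4% of all measured genes. A few of the measured genes thus lay far from equal signals and most lay close to them.

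**Figure D1:**
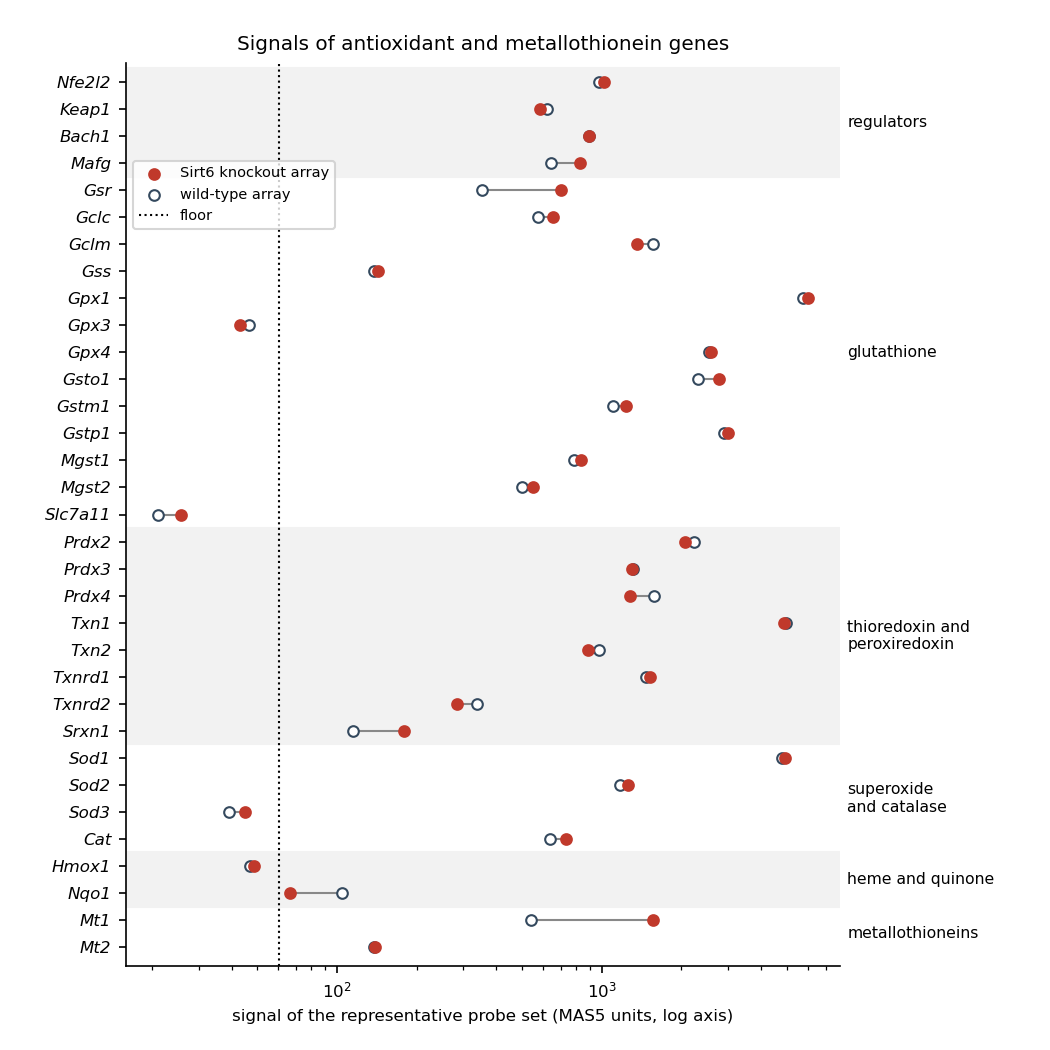
Signal of the representative probe set of each of the 33 genes on the array labelled Sirt6 knockout (filled) and the wild-type array (open), in MAS5 units on a log axis, with 1 array per genotype and the floor of 60.5 as a dotted line. The widest gap is that of Mt1, at 1560 and 542, while the Mt2 points overlap at 139 and 138.

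The metallothionein genes Mt1 and Mt2 differed from each other. Mt1 read 1560 (labelled knockout) and 542 (wild type). That is 2.88-fold higher (log2 1.53), the 9th highest ratio of the 11540 measured genes. The central 95% of the 2294 genes with mean signals between 512 and 1024 had ratios from -0.42 to 0.41, so Mt1 lay well outside that spread. This value rests on a probe set whose name ends in _s_at, a kind that can match related transcripts, and Mt1 had no value when such probe sets were left out. The other Mt1 probe set read 54.5 (labelled knockout) and 25.98 (wild type), under the floor on both. It leaned the same way, but it was too dim to serve as a second measurement.

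Mt2 read 139 (labelled knockout) and 138 (wild type), a log2 ratio of 0.0065. Its single probe set therefore showed nearly equal signals where Mt1 did not. Both genes encode small cysteine-rich metal-binding proteins and are neighbours on chromosome 8, with Mt2 at 94172618 to 94173567 and Mt1 at 94178883 to 94180327 (GRCm38.p6). Mt3, a further metallothionein known from brain and counted with the other pathway genes, read 534 (labelled knockout) and 506 (wild type), a log2 ratio of 0.08. Of the genes around metallothionein that handle zinc, Mtf1, the metal-responsive transcription factor, read 243 (labelled knockout) and 274 (wild type), a log2 ratio of -0.17. Its 4 probe sets above the floor ranged from -0.17 to 0.34. Slc30a1, a zinc exporter and classic Mtf1 target, read 231 (labelled knockout) and 222 (wild type), a log2 ratio of 0.05. Mt3, Mtf1 and Slc30a1 were singled out after their values were seen.

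The promoters of Mt1 and Mt2 are shown because the genes share a regulator and yet had different ratios. The windows run from 250 bases before to 30 after an annotated RefSeq transcript start (GRCm38.p6, plus strand), at chr8:94178839-94179118 for Mt1 and chr8:94172368-94172647 for Mt2. The start used for Mt1 lies inside its gene record, downstream of the record's first base. Capitals mark matches on either strand to the metal response element core, spelled TGCACNC or TGCGCNC.
Mt1: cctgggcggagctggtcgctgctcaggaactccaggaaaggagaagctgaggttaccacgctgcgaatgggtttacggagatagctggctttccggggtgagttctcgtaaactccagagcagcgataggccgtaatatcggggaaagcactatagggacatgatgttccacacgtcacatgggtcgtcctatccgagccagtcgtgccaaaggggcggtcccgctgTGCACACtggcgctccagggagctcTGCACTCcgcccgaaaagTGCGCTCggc
Mt2: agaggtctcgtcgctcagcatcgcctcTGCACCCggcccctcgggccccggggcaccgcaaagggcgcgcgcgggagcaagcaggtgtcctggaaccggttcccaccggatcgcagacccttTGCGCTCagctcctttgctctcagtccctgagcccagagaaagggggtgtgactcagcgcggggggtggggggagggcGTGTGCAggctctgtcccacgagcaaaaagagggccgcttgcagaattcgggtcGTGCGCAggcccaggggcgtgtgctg
Mt1 held 3 matches, at -23, 2 and 20 from the start, and Mt2 held 4, at -223, -128, -50 and 4. At least 1 such match was found in 26.6% of the 27025 genes with a window of this length and at least 2 in 7.27%. The windows of Mt1 and Mt2 were both among those with at least 2. The Mt1 window may not be that of its main transcript, so the match counts of the genes are not compared. A match is a run of letters and not a tested site.

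**Figure D2:**
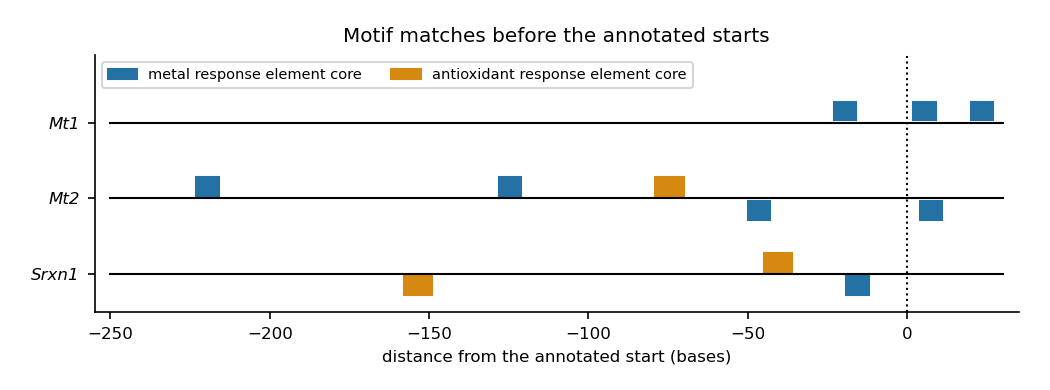
Matches to the metal response element core (blue) and the antioxidant response element core (orange) by distance in bases from the annotated start (dotted line) in the windows of Mt1, Mt2 and Srxn1; boxes above a line lie on the plus strand and boxes below it on the minus strand. Mt1 has 3 metal response element matches and Mt2 has 4, and Srxn1 has 2 antioxidant response element matches.

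Most members of glutathione metabolism had small positive ratios. Of 13 genes, 11 were measured, 10 of these had a positive ratio, 1 was at least 1.5-fold higher and 0 were at least 1.5-fold lower. Their median log2 ratio was 0.08. Only Gsr went past 1.5-fold, and the others lay between -0.20 and 0.27. Among all measured genes, 50.4% had a positive ratio and 1.72% were at least 1.5-fold higher. Of the positive ratios, only those of Gsr and Gsto1 exceeded the SD of 0.22 between probe sets. The further glutathione genes described below had 12 positive and 16 negative ratios.

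Gsr, glutathione reductase, which uses NADPH to return oxidised glutathione to its reduced form, read 702 (labelled knockout) and 353 (wild type), a log2 ratio of 0.99 or 1.99-fold higher. Its second probe set read 413 (labelled knockout) and 240 (wild type), a log2 ratio of 0.78. Both probe sets were thus past 1.5-fold in the same direction, which was the case for no other member that had more than 1 probe set over the floor. The gene lies on chromosome 8 at 33653238 to 33698162 (GRCm38.p6). Its ratio was the 47th highest of the 11540 measured genes, and 95% of the 2501 genes with mean signals between 256 and 512 lay between -0.56 and 0.45.

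Genes of glutathione synthesis differed little. Gclc, the catalytic subunit of the rate-limiting glutamate-cysteine ligase, read 651 (labelled knockout) and 577 (wild type), a log2 ratio of 0.18, with 0.29 on its other probe set. Gclm, the modifier subunit of that enzyme, read 1357 (labelled knockout) and 1563 (wild type), a log2 ratio of -0.20, with 0.06 on its other probe set. Gss, glutathione synthetase, which adds glycine in the last step, read 143 (labelled knockout) and 138 (wild type), a log2 ratio of 0.05, with -0.19 on its other probe set. On these probe sets the subunits of the ligase thus pointed in opposite directions, by amounts within the SD of 0.22 between probe sets. Slc7a11, the importer of cystine for glutathione synthesis, read 25.7 (labelled knockout) and 21.2 (wild type), under the floor on both.

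The glutathione peroxidases showed near-equal signals. Gpx1, the cytosolic enzyme, read 5986 (labelled knockout) and 5732 (wild type), a log2 ratio of 0.06. Gpx4, which reduces lipid hydroperoxides and protects from ferroptosis, read 2579 (labelled knockout) and 2536 (wild type), a log2 ratio of 0.02. Gpx3, the secreted enzyme, read 43.1 (labelled knockout) and 46.3 (wild type), under the floor on both.

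Among the glutathione transferases, the omega class gene Gsto1 read 2782 (labelled knockout) and 2308 (wild type), a log2 ratio of 0.27, with 0.26 on its other probe set. The mu class gene Gstm1 read 1231 (labelled knockout) and 1100 (wild type), a log2 ratio of 0.16. All 4 Gstm1 probe sets were above the floor and positive, from 0.16 to 0.35, although mu class genes are close paralogs whose transcripts a probe set may share. The remaining transferases had smaller ratios. Gstp1, of the pi class, had a log2 ratio of 0.05 (2992 labelled knockout, 2883 wild type). The microsomal transferases Mgst1 (833 labelled knockout, 787 wild type) and Mgst2 (548 labelled knockout, 501 wild type) had log2 ratios of 0.08 and 0.13.

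**Figure D3:**
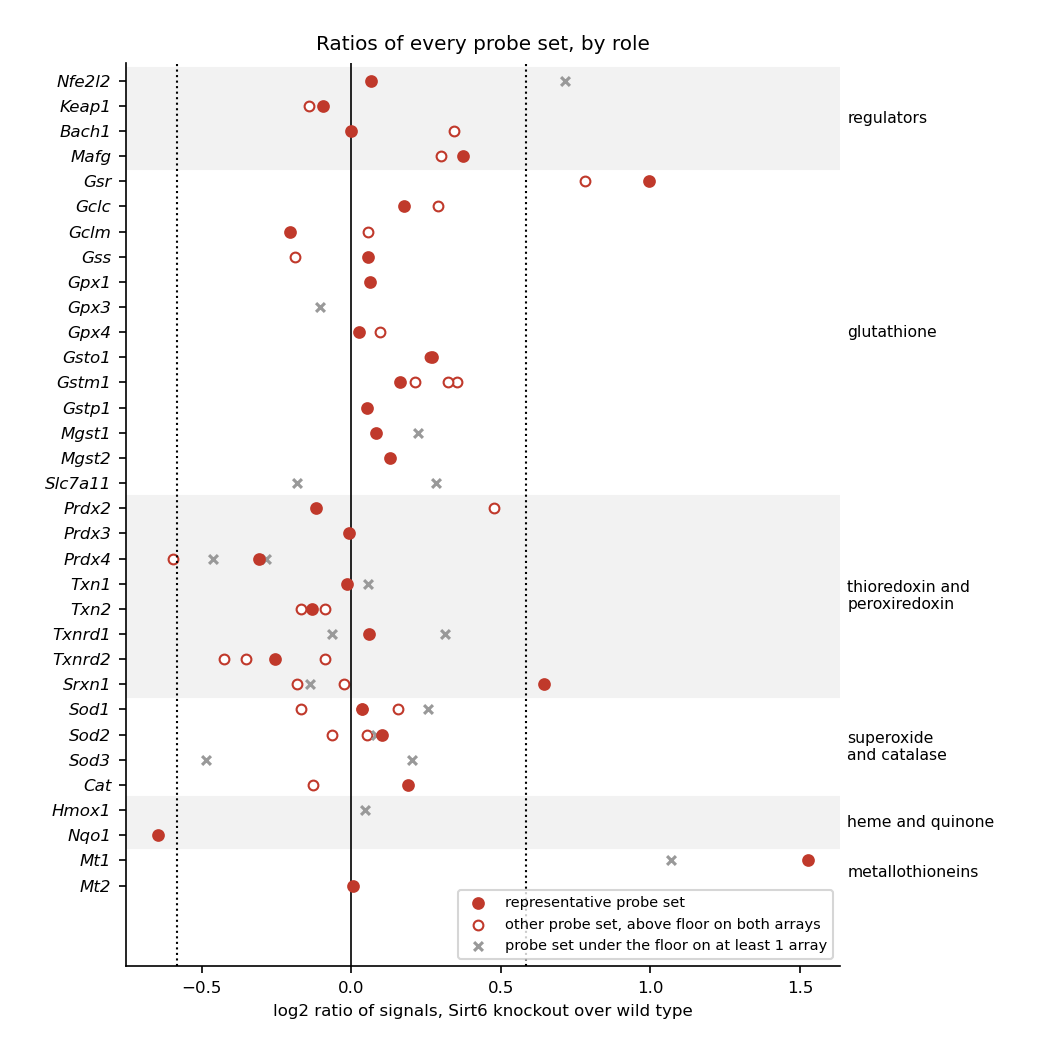
Log2 ratio of signals, Sirt6 knockout over wild type, of every probe set of the 33 genes by role, with dotted lines at 1.5-fold. Filled points are representative probe sets, open points are other probe sets above the floor in both samples, and crosses are probe sets under the floor on at least 1 array; both Gsr probe sets lie past the line, at 0.99 and 0.78, whereas those of Srxn1 lie on both sides of 0.

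Ratios in the thioredoxin and peroxiredoxin group were mostly small. Of 11 genes, 8 were measured, 6 of these had a negative ratio, 1 was at least 1.5-fold higher and 0 were at least 1.5-fold lower. Of the 6, Prdx3 and Txn1 were near 0 and Prdx2 had probe sets of opposite sign. The median log2 ratio was -0.07, or -0.020 with the median over probe sets. Over the whole array, 50.4% of measured genes had a positive ratio, while 1.72% counted as higher and 2.63% as lower. The genes with the most negative ratios were Prdx4 and Txnrd2.

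Prdx4, the peroxiredoxin of the endoplasmic reticulum, read 1274 (labelled knockout) and 1580 (wild type), a log2 ratio of -0.31. Its second probe set above the floor read 120 (labelled knockout) and 182 (wild type), a log2 ratio of -0.60. Both were therefore lower on the array labelled knockout, only the dimmer one past 1.5-fold. Txnrd2, the mitochondrial thioredoxin reductase, read 283 (labelled knockout) and 338 (wild type), a log2 ratio of -0.25, and its 4 probe sets ranged from -0.43 to -0.09. Txn2, the mitochondrial thioredoxin, read 889 (labelled knockout) and 974 (wild type), a log2 ratio of -0.13, with its 3 probe sets between -0.17 and -0.09. Every probe set of these 3 genes above the floor had a negative ratio, and all but 1 were under 1.5-fold. Such agreement was common. Of the 18 members with more than 1 probe set above the floor on both arrays, 10 had ratios of the same sign throughout. The share over all such genes on the array was 52.3%.

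The cytosolic thioredoxin Txn1 read 4898 (labelled knockout) and 4947 (wild type), a log2 ratio of -0.01. Its reductase Txnrd1 read 1522 (labelled knockout) and 1462 (wild type), a log2 ratio of 0.06. The mitochondrial peroxiredoxin Prdx3 read 1304 (labelled knockout) and 1312 (wild type), a log2 ratio of -0.0085. These 3 genes had near-equal signals. Prdx2, a peroxiredoxin abundant in red cells, read 2056 (labelled knockout) and 2231 (wild type), a log2 ratio of -0.12, while its other probe set gave 0.48, so its direction was not settled.

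Srxn1, sulfiredoxin, which restores overoxidised peroxiredoxins, read 180 (labelled knockout) and 115 (wild type), a log2 ratio of 0.65 or 1.56-fold higher. Its other probe sets above the floor did not share this difference. They read 112 (labelled knockout) and 114 (wild type), a log2 ratio of -0.026, and 65.1 (labelled knockout) and 73.9 (wild type), a log2 ratio of -0.18. With the median over its probe sets the ratio was -0.026, so the count of higher genes holds Srxn1 through 1 of 3 probe sets.

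The promoter of Srxn1, a textbook NRF2 target, is shown as an example of the antioxidant response element core, searched as TGACNNNGC or TGAGNNNGC on both strands and marked in capitals. The window lies at chr2:152105274-152105553 (GRCm38.p6, plus strand), with 250 bases before and 30 after the annotated start.
Srxn1: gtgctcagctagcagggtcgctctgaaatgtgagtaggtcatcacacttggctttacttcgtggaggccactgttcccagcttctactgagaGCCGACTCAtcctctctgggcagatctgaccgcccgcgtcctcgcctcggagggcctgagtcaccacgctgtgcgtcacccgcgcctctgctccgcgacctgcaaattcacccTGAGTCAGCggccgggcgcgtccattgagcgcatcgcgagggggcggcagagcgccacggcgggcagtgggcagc
It held 2 matches, at -158 and -45. Of the 31 members with a promoter window, 12 (38.7%) held at least 1 such match, against 28.8% of all 27025 genes. The metal response element core was found in 8 of the 31 (25.8%), against 26.6% of all genes. Matches of the different cores overlapped in 1 place among the members' windows. The 12 members with an antioxidant response element match were Gclm, Gstp1, Mafg, Mgst1, Mt2, Nfe2l2, Prdx1, Slc7a11, Sod1, Srxn1, Txn2 and Txnrd1. Of these, Srxn1 was past 1.5-fold, Slc7a11 was under the floor, Prdx1 was not analysed and the others lay between. Gsr, Gclc and Hmox1 had no promoter window here and were not searched. A link between matches and ratios was not tested.

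The enzymes that act on superoxide and hydrogen peroxide had small positive ratios, with 3 of 4 genes measured, 0 past 1.5-fold in either direction and a median of 0.10. Sod1, the cytosolic copper and zinc enzyme, read 4922 (labelled knockout) and 4798 (wild type), a log2 ratio of 0.04. Sod2, the mitochondrial manganese enzyme, read 1255 (labelled knockout) and 1170 (wild type), a log2 ratio of 0.10. Cat, catalase of the peroxisome, read 730 (labelled knockout) and 640 (wild type), a log2 ratio of 0.19. None of these ratios exceeded the SD of 0.22 between probe sets, and each of the 3 genes also had a probe set with a negative ratio. Sod3, the extracellular enzyme, read 45.0 (labelled knockout) and 39.1 (wild type), under the floor on both.

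The transcriptional regulators of the NRF2 pathway were measured in all 4 cases and none was past 1.5-fold (median log2 ratio 0.03). Nfe2l2 read 1023 (labelled knockout) and 979 (wild type), a log2 ratio of 0.06. Keap1, the adaptor that delivers NRF2 to a ubiquitin ligase, read 584 (labelled knockout) and 623 (wild type), a log2 ratio of -0.09. Bach1, a heme-sensitive repressor of NRF2 targets, read 895 (labelled knockout) and 896 (wild type), with 0.34 on its other probe set. Mafg, a small Maf protein that pairs with NRF2 or Bach1 on DNA, had the largest ratio of these, at 831 (labelled knockout) and 642 (wild type), a log2 ratio of 0.37, with 0.30 on its other probe set. NRF2 is controlled mainly at the level of protein, which these arrays do not measure.

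Of Nqo1 and Hmox1, both widely used as readouts of NRF2, Nqo1 was lower with the knockout label and Hmox1 was not measured. Nqo1, a quinone reductase, read 66.5 (labelled knockout) and 104 (wild type), 1.56-fold lower (log2 -0.65). It was measured close to the floor by a single probe set, where 95% of 2253 genes with mean signals under 128 had ratios from -0.80 to 0.62, so Nqo1 lay within that spread. With a pseudocount equal to the floor its ratio was -0.37, short of 1.5-fold. Hmox1, which degrades heme, read 48.5 (labelled knockout) and 46.98 (wild type), under the floor on both.

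**Figure D4:**
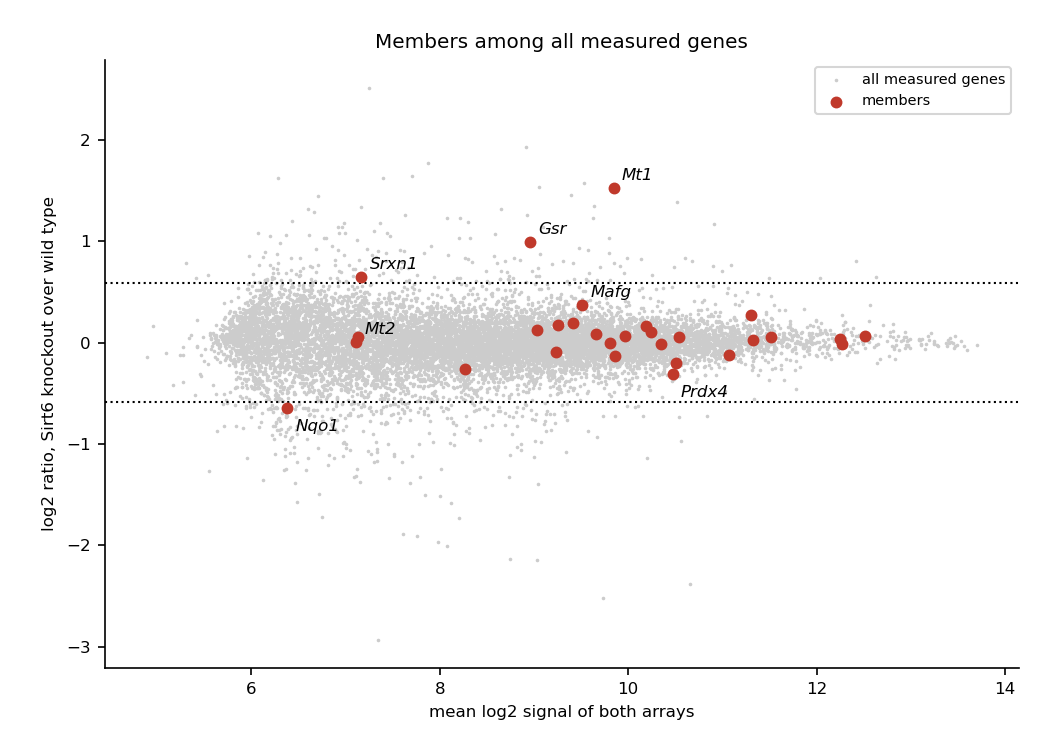
Log2 ratio, Sirt6 knockout over wild type, against mean log2 signal of both arrays for all 11540 measured genes (grey) and the 29 measured members (red), with dotted lines at 1.5-fold. Mt1 (1.53) and Gsr (0.99) lie outside the central 95% of genes of similar signal, where other genes have ratios as large, whereas Nqo1 (-0.65) lies among dim genes with a wide spread.

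Other genes of the same pathways were taken from 7 lists with 135 genes, of which 111 were measured. Past 1.5-fold lay 2 higher genes (1.80%) and 6 lower genes (5.41%), against 1.72% and 2.63% of all measured genes. Their median log2 ratio was 0.0056. Positive and negative ratios were near balance, at 56 and 55 genes.

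The higher genes were Gstm3 and Msrb1. Gstm3, a mu class transferase, read 246 (labelled knockout) and 162 (wild type), a log2 ratio of 0.61. That value rests on 1 probe set whose name ends in _s_at, a kind that can match related transcripts. Msrb1, a selenoprotein that reduces oxidised methionine, read 549 (labelled knockout) and 352 (wild type), a log2 ratio of 0.64. Ero1a, the oxidase that loads disulfides in the endoplasmic reticulum, stayed just short of the size at 810 (labelled knockout) and 541 (wild type), a log2 ratio of 0.58. It was named after its value was seen.

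Of the 6 lower genes, 4 belong to the glutathione list. Gsta4, a transferase of lipid aldehydes, read 108 (labelled knockout) and 197 (wild type), a log2 ratio of -0.87. The theta class gene Gstt1 read 73.1 (labelled knockout) and 131 (wild type), a log2 ratio of -0.84. Gstk1, the kappa class transferase of mitochondria and peroxisomes, read 289 (labelled knockout) and 456 (wild type), a log2 ratio of -0.66. Gpx7, a peroxidase of the endoplasmic reticulum, was at least 1.73-fold lower, at 56.6 (labelled knockout), below the floor, and 105 (wild type). The glutathione list thus held genes on both sides, with 12 positive and 16 negative ratios among 28 measured and a median of -0.06.

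The other lower genes were Aldh1a1 and Blvrb. Aldh1a1, a retinaldehyde dehydrogenase that also clears lipid aldehydes, read 270 (labelled knockout) and 677 (wild type), a log2 ratio of -1.32, the widest gap in these lists. Blvrb, biliverdin reductase B, read 187 (labelled knockout) and 292 (wild type), a log2 ratio of -0.64. Both are in the list of heme, iron, quinone and aldehyde genes, which had 4 positive and 10 negative ratios among 14 measured and a median of -0.10.

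Genes that supply NADPH, the electron source of both reductases, were mostly a little higher with the knockout label. Of 12 measured, 10 had a positive ratio, against 50.4% of all measured genes. Past 1.5-fold were 0, against 1.72% higher and 2.63% lower of all measured genes. The median was 0.16, and a single ratio of that size lies within the SD of 0.22 between probe sets. Of the 10, Me1 (0.01) and Idh2 (0.03) were near 0, and Nadk and Me2 had probe sets of opposite sign. The genes in this paragraph were named after their values were seen. Idh1, the cytosolic NADP-dependent isocitrate dehydrogenase, read 512 (labelled knockout) and 370 (wild type), a log2 ratio of 0.47, and its other probe set gave 0.62. Pgd, of the pentose phosphate pathway, had 4 probe sets between 0.23 and 0.28. Nnt, the mitochondrial transhydrogenase kept in the superoxide list, read 959 (labelled knockout) and 1290 (wild type), a log2 ratio of -0.43, with -0.29 on its other probe set.

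Medians of the remaining lists were close to 0. They were 0.07 for 9 further regulators, 0.02 for 26 thioredoxin-fold, sulfoxide reductase and sestrin genes, -0.01 for 7 superoxide and mitochondrial genes and -0.0041 for 15 metal transport and binding genes. None of the zinc transporters was past 1.5-fold.

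**Figure D5:**
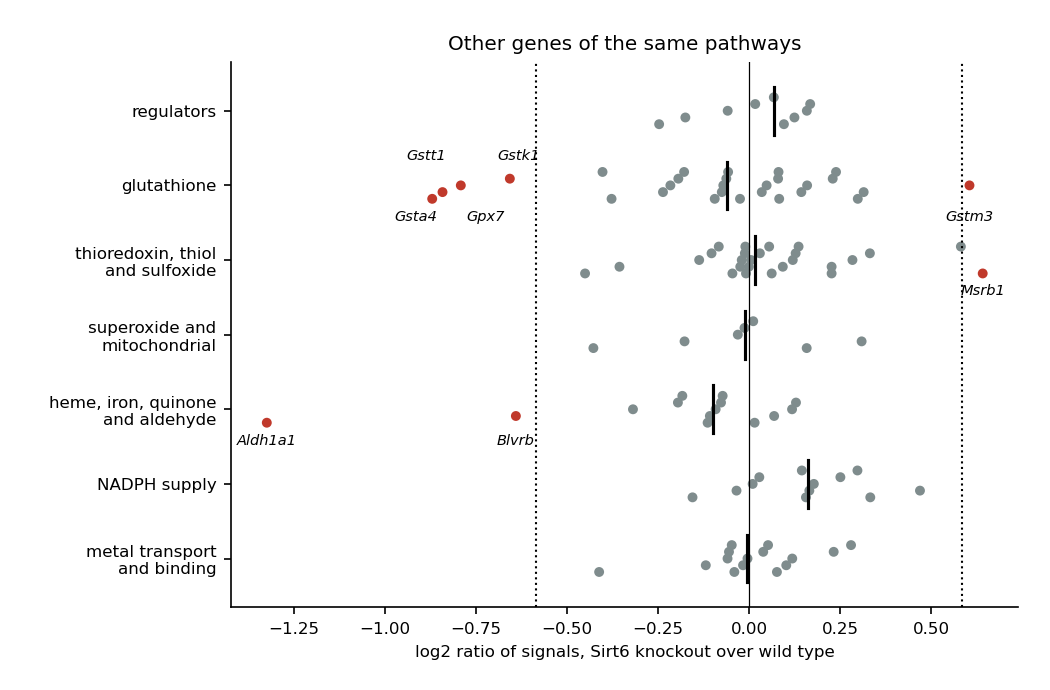
Log2 ratio, Sirt6 knockout over wild type, of the 111 measured genes in 7 lists of related pathways; each point is a gene, red points are at least 1.5-fold different, vertical bars are list medians and dotted lines mark 1.5-fold. NADPH supply has the highest median, at 0.16, and Aldh1a1 the lowest ratio, at -1.32.

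Markers of granulocytes and of basophils, mast cells and eosinophils moved in the direction of Mt1 and Gsr, and their part in these results was not tested. Of the granulocyte markers, 10 of 12 measured were past 1.5-fold higher and 0 lower with the knockout label. Their summed signals were 37293 (knockout) and 23263 (wild type), a ratio of 1.60, led by Lcn2 (log2 1.26), and Mmp8 was under the floor on both arrays. Of the basophil, mast cell and eosinophil markers, 6 of 9 were higher and 1 lower, with summed signals of 3362 (knockout) and 2016 (wild type), while Epx and Il5ra were under the floor. Of the monocyte and macrophage markers, 1 of 10 was higher and 0 lower, 6 had a positive ratio and Cd14 was under the floor. Their summed signals were 3615 (knockout) and 2360 (wild type), and most of that gap was F13a1 alone, at 1273 (knockout) and 428 (wild type).

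Markers of other cell types were mixed. Of the endothelial and stromal markers, 4 of 7 measured were lower and 2 higher, and Adipoq, Cdh5, Col1a1, Col3a1, Dcn, Kitl and Lepr were under the floor on both arrays. Their summed signals were 1835 (knockout) and 1945 (wild type). Of the B cell markers, 4 of 9 were higher and 1 lower, with summed signals of 2392 (knockout) and 4630 (wild type). The lower one was Ighm, the mu heavy chain, at 707 (knockout) and 3684 (wild type), a log2 ratio of -2.38. Erythroid markers had 2 of 8 higher and 1 lower, with sums of 6179 (knockout) and 6320 (wild type). The lower one was Car1, at 128 (knockout) and 499 (wild type), a log2 ratio of -1.96. Megakaryocyte markers had 1 of 6 higher and 3 lower, with sums of 2374 (knockout) and 2265 (wild type). T and NK cell markers had 1 of 5 higher and 0 lower, with sums of 2808 (knockout) and 2367 (wild type). The part of these lists was not tested either. The defining T cell genes Cd3d, Cd3e and Cd3g were under the floor on both arrays.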

How the data were processed

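Total RNA of HSC of each genotype was measured on 1 array. The authors deposited a linear signal intensity for each probe set, made with MAS5 per the submitters' processing notes, whose version, scaling target and detection calls the sources used here do not give. There were 45037 probe sets, of which 34945 named 1 gene, 932 several and 9160 none. Names came from the platform annotation, and 34741 of the 34945 matched RefSeq (GRCm38.p6) by Entrez identifier. Promoter sequences are from RefSeq of that build.

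Signals were used as deposited, since the means after trimming 2% of probe sets at each end were 217 (labelled knockout) and 218 (wild type). Values under the floor were raised to it, and a ratio against such a value is written as "at least". Members were called at 1.5-fold, with no test, because the number of arrays limits the precision. The spread of ratios was also described in bands of mean signal chosen after seeing the data, as were the motif spellings. The rule for naming took all members, Sirt6, every pathway gene past 1.5-fold and the leading markers. The members and lists were chosen with earlier results of these data known. Alternatives were quantile normalization, median centring, loess (span 0.3), a lower and a higher floor (percentiles 25 and 75) or none, a pseudocount equal to the floor, the median over probe sets, leaving out _x_at and _s_at probe sets, and sizes of 2-fold and midway between 1-fold and 1.5-fold. The procedure was tested on simulated data with changes larger than 1.5-fold and equal noise at all signals. That test therefore says nothing about dim genes or about ratios near 1.5-fold. Software was Python 3.11.15 with pandas 2.3.3, numpy 2.4.6, statsmodels 0.14.6 and matplotlib 3.10.9.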

Additional observations from a re-analysis of the deposited data

How the results depend on the processing

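Quantile normalization, median centring and loess left the counts of members at 3 higher and 1 lower. Of all measured genes, 1.72% to 2.02% were then higher and 2.3% to 2.63% lower. The count of members higher was 2 with the floor at percentile 75, with the pseudocount, with the median over probe sets and without _x_at and _s_at probe sets, and 1 at a size of 2-fold. The shares of all measured genes higher were 1.15%, 0.979%, 1.58%, 1.73% and 0.399%, in that order. The count lower was 0 with the floor at percentile 75, with the pseudocount and at 2-fold. Of all measured genes, 1.29%, 1.4% and 0.572% were lower in these settings. Without _x_at and _s_at probe sets Mt1 had no value, because its other probe set was under the floor, and the metallothionein median was then that of Mt2 (0.0065). With the floor at percentile 75 it was that of Mt1 (1.53). The heme oxygenase and quinone reductase value was -0.30 with the floor at percentile 25 and with no floor, and -0.37 with the pseudocount, and no gene of that group was measured at percentile 75. Pathway genes at least 1.5-fold higher numbered 1 of 83 with the floor at percentile 75 and 1 of 108 without _x_at and _s_at probe sets. The shares of all measured genes were 1.15% and 1.73%. With no floor 5 of 126 pathway genes were higher, against 5.43% of all genes. With the pseudocount 0 of 111 were, against 0.979%. Pathway genes at least 1.5-fold lower numbered 2 of 83 with the floor at percentile 75 and 2 of 111 with the pseudocount. The shares of all measured genes were 1.29% and 1.4%. At 2-fold the pathway counts were 0 higher and 1 lower of 111, against 0.399% and 0.572% of all measured genes. At a size midway between 1-fold and 1.5-fold they were 6 higher and 12 lower of 111. Of the 29 members, 4 were higher and 1 lower at that size. Among all measured genes, 7.26% were higher and 8.57% lower. Of 264 recomputed values of members and Sirt6, 261 kept within 0.22 of their value. The other 3 were Nqo1 (-0.37, pseudocount) and, with the median over probe sets, Srxn1 (-0.026) and Prdx2 (0.18). The 261 overstate how stable the values are. Changing or removing the floor left every value still measured as it was, and median centring moved all by the same small amount. Genes that a setting left unmeasured were not counted, such as Mt1 without _x_at and _s_at probe sets. Signs changed in 8 values of 6 genes. Srxn1 was the 1 gene past 1.5-fold among them. The rest were Prdx2, Bach1 (0.17) and Gss (-0.067) with the median over probe sets, Gpx4 (-0.012) and Sod1 (-0.0014) under quantile normalization, and Bach1 under centring (0.0019) and loess (0.0018), from a value near 0. Why probe sets of the same gene differed was not tested. No paired analysis was possible because each genotype had 1 array. Dim genes limit what can be read: 4 of the 33 genes were under the floor on both arrays.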
